A study of Homo sapiens with 18 samples.

Results

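Libraries labelled as overexpressing the splicing factor SRSF6 (SRSF6-OE) were set directly against libraries labelled as overexpressing the related factor SRSF9 (SRSF9-OE), across all genes and without the empty-vector group. Counts of SRSF6 did not set its group apart, as given below. The members were the samples whose titles carry the labels SRSF6-OE and SRSF9-OE, 6 of the 18 samples in the study, with 3 of each label. All came from the human mammary epithelial line MCF-10A, which is immortal but does not form tumours. SRSF6-OE cells carried a stably expressed retroviral construct with the SRSF6 coding sequence, and SRSF9-OE cells the same kind of construct with that of SRSF9. Both groups were collected on day 8 of culture inside Matrigel, a gel of basement membrane proteins in which this line forms hollow spheres. Stranded mRNA libraries were read as paired ends of 101 bases. Replicates 1 and 2 of SRSF6-OE were lanes 2 and 4 of a single library with the same barcode and were summed, so the comparison held 5 of the study's 14 libraries, 2 for SRSF6-OE and 3 for SRSF9-OE. The labels do not say whether libraries came from separate cultures or whether a group was 1 infected pool, so the spread that p-values measure is that between libraries and could be technical. No second SRSF6 or SRSF9 construct was used, and levels of the introduced proteins were not analysed here.

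SR proteins are RNA-binding proteins with a domain rich in arginine and serine that bind exons in pre-mRNA and help the spliceosome to choose splice sites. SRSF6 and SRSF9 have a canonical RNA recognition motif and a second, variant one, and SRSF9 is a short member of the family with a reduced arginine-serine domain. Many SR genes hold an exon that brings in a premature stop codon, through which SR proteins lower their own mRNA. In mammary epithelium, members of the family have been studied for the growth and shape of structures in three-dimensional culture. Counts per gene, as used here, say nothing of splicing itself.

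The 2 SRSF6-OE libraries held 105910432 (replicates 1-2, summed) and 54090019 (replicate 3) counts, and the 3 SRSF9-OE libraries held 54083271, 48409510 and 42959069. Below, values of single libraries are given in these orders, as CPM (counts scaled to a common library size after TMM normalisation). Mitochondrially encoded genes took 6.45% to 10.4% of counts. The SRSF6-OE libraries stood further apart than any pair within SRSF9-OE, with a correlation across genes of r = 0.959 on log2 CPM against 0.977 to 0.985, and the summed library lay closest to the summed SRSF4-OE library (r = 0.989). The summed SRSF6-OE library correlated more with each SRSF9-OE library (0.978, 0.972 and 0.967) than with SRSF6-OE replicate 3. Replicate 3 of SRSF6-OE also correlated more with SRSF9-OE replicates 2 and 3 (0.969 and 0.961), though not with replicate 1 (0.952). The summed SRSF6-OE library carries a library ID in its description, while SRSF6-OE replicate 3 and all SRSF9-OE libraries carry numeric labels, so replicate 3 against SRSF9-OE is the comparison within 1 label set. All 8 epithelial markers were measured, with a median log2 fold change of 0.12 between the groups (0.57 with SRSF6-OE replicate 3 alone and -0.36 with the summed library alone). Only KRT14, a keratin of the outer, basal cells of mammary epithelium, had groups that did not overlap, at 5212 and 5538 CPM in the SRSF6-OE libraries and 4633, 2713 and 1691 CPM in the SRSF9-OE libraries. Of the markers of other cells, 3 of 8 for fibroblasts, 2 of 6 for leukocytes, 2 of 6 for endothelium and 3 of 6 for hormone-sensing luminal cells passed the filter on low counts. Leukocyte markers summed to 4.50 to 5.69 CPM in SRSF6-OE and 3.71 to 5.49 CPM in SRSF9-OE. Endothelial markers summed to 4.17 to 13.01 CPM in SRSF6-OE and 12.2 to 15.2 CPM in SRSF9-OE, and fibroblast markers to 214 to 376 CPM in SRSF6-OE and 158 to 216 CPM in SRSF9-OE. The leukocyte marker PTPRC did not pass the filter. In such bulk RNA, fewer cells of a type and less RNA per cell cannot be told apart.

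SRSF9 separated the groups and SRSF6 did not. SRSF6 stood at 413 and 278 CPM in the libraries labelled SRSF6-OE and at 327, 234 and 261 CPM in those labelled SRSF9-OE. The groups overlapped, since SRSF9-OE replicate 1 lay above SRSF6-OE replicate 3. The log2 fold change, SRSF6-OE minus SRSF9-OE, was 0.34 ± 0.25 (standard error; edgeR's quasi-likelihood test, Benjamini-Hochberg adjusted p = 0.678), and it was 0.02 with SRSF6-OE replicate 3 alone and 0.59 with the summed library alone. The 9 libraries of the other 4 groups spanned 239 to 448 CPM of SRSF6 (scaled over all 14 libraries), a range that holds both SRSF6-OE libraries. Counts do not part the introduced coding sequence from the gene's own transcript, so each group is called by its label here.

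SRSF9 stood at 90.7 and 106 CPM in SRSF6-OE, against 356, 620 and 828 CPM in SRSF9-OE. Every SRSF9-OE library lay at least 3 times above both SRSF6-OE libraries, while the SRSF6-OE values fell in or next to the 91.6 to 117 CPM of the 9 other libraries. Its log2 fold change was -2.61 ± 0.39, with adjusted p = 0.161 in edgeR on the 5 libraries, 0.0461 in edgeR on all 14 libraries with label set as a term, and 6.8e-09 in DESeq2. Features that can share reads with SRSF9 moved with it. GATC, which encodes a subunit of the mitochondrial glutamyl-tRNA amidotransferase and overlaps SRSF9 in the annotation, stood at 64.5 and 75.6 CPM in SRSF6-OE and at 157, 257 and 363 CPM in SRSF9-OE. The processed pseudogene SRSF9P1 stood at 0.0177 and 0.0212 CPM in SRSF6-OE and at 1.45, 3.79 and 2.72 CPM in SRSF9-OE. The values of GATC and SRSF9P1 are therefore uncertain.

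**Figure D1:**
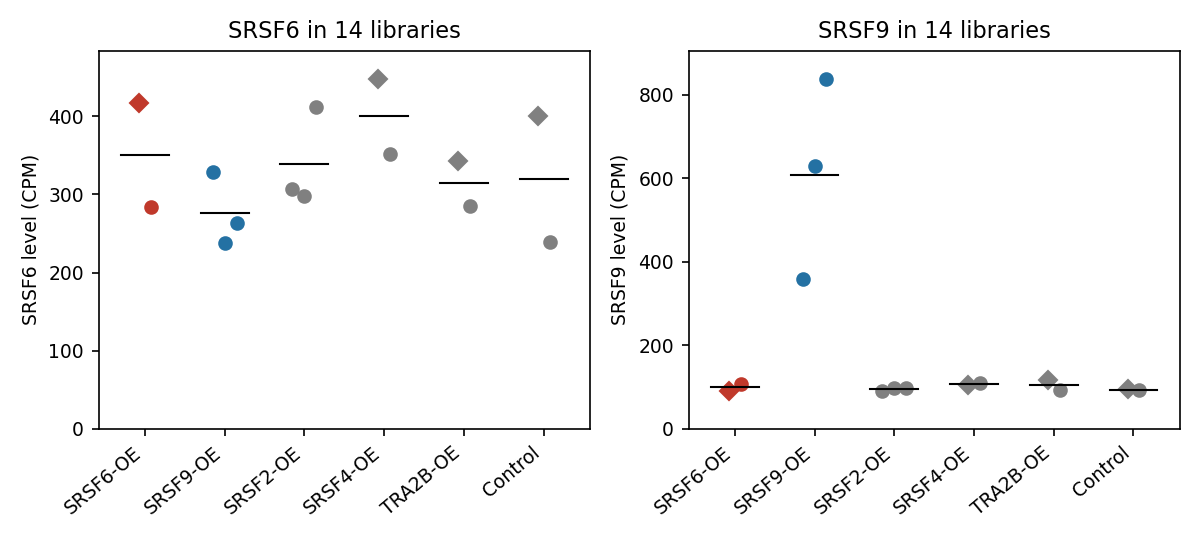
Level of SRSF6 (left) and SRSF9 (right) in CPM, on linear axes from 0, in each of the 14 libraries by group. Diamonds are libraries summed over 2 lanes, circles libraries that were not summed and black lines group means. SRSF9 is above 350 CPM only in the 3 SRSF9-OE libraries, while SRSF6 spans a like range in all groups.

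In edgeR's quasi-likelihood test on the 5 libraries, 0 of 19960 genes passed an adjusted p of 0.05 (0.0%), with a smallest adjusted p of 0.0860, and 2045 genes (10.2%) had an unadjusted p under 0.05. Of all genes tested 9985 (50.0%) had a log2 fold change above 0 and 9975 (50.0%) below. Limma-voom also called 0 genes, with 1978 at an unadjusted p under 0.05. DESeq2 called 410 genes (2.05%), 228 higher in SRSF6-OE (1.14%) and 182 lower (0.912%). Of those 410, 407 had both SRSF6-OE libraries on the same side of all 3 SRSF9-OE libraries, a pattern found upward in 2667 of all genes tested (13.4%) and downward in 2858 (14.3%). Since edgeR called no gene, the genes named below come mainly from what DESeq2 called, which was decided once the edgeR count was known, and "called" refers to DESeq2 unless edgeR is named. The edgeR count changed with the SRSF6-OE libraries used and with the filter. It was 1100 without a filter on low counts, 983 (4.8%) without the summed library and 87 (0.421%) without replicate 3, where the lone SRSF6-OE library is taken to vary like the SRSF9-OE libraries. Without any of the 3 SRSF9-OE libraries it was 0. With all 14 libraries and label set as a term, edgeR called 5 genes (0.0234%). These were STARD13-AS, PCDHGA11, SLCO1B3 and the clone-named transcript AC105460.1, all higher in SRSF6-OE, and SRSF9, lower.

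The antisense RNA STARD13-AS had the largest difference of all named genes. It stood at 48.3 and 275 CPM in SRSF6-OE, against 0.143, 0.294 and 0.118 CPM in SRSF9-OE, and did not exceed 0.467 CPM in the 9 other libraries. Its log2 fold change was 9.74 ± 0.92 (edgeR adjusted p = 0.0860 on the 5 libraries and 0.0055 on all 14). STARD13, the gene on whose opposite strand it lies, stood at 22.6 and 18.8 CPM in SRSF6-OE and at 20.1, 16.3 and 11.2 CPM in SRSF9-OE, with overlap. SLCO1B3, an organic anion transporter best known from liver, stood at 1.99 and 5.50 CPM in SRSF6-OE and at 0.0714, 0.0981 and 0.0473 CPM in SRSF9-OE. PCDHGA11, a clustered protocadherin whose exons are shared with its neighbours in the cluster, stood at 1.53 and 1.97 CPM in SRSF6-OE and at 0.232, 0.157 and 0.308 CPM in SRSF9-OE. All 3 were low in every SRSF9-OE library and lay above the range of the 9 other libraries in both SRSF6-OE libraries.

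Several of the other genes furthest above SRSF9-OE encode receptors and secreted proteins. IL1R2, the decoy receptor that binds interleukin 1 without signalling, stood at 53.2 and 70.3 CPM in SRSF6-OE and at 4.18, 2.06 and 1.30 CPM in SRSF9-OE. Its log2 fold change was 4.61 ± 0.48 (DESeq2 adjusted p = 1.64e-18, edgeR adjusted p = 0.0860). PAPPA, a protease that cleaves IGF-binding proteins, stood at 23.03 and 8.48 CPM in SRSF6-OE and at 0.411, 0.824 and 0.450 CPM in SRSF9-OE. FST, which encodes the activin antagonist follistatin, stood at 6.46 and 15.8 CPM in SRSF6-OE and at 1.61, 1.10 and 0.970 CPM in SRSF9-OE. For these 3 the SRSF6-OE libraries were, on a log scale, close to each other relative to the gap between the groups. DKK1, a secreted inhibitor of Wnt signalling, stood at 47.7 and 12.3 CPM in SRSF6-OE, against 3.52, 3.02 and 3.74 CPM in SRSF9-OE. Its log2 fold change was 3.13 ± 0.53, and 1.85 without the summed library.

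In other genes with large differences, a single SRSF6-OE library held most of the level. IL1RL1, the receptor for interleukin 33, stood at 66.9 CPM in the summed SRSF6-OE library and at 0.465 CPM in replicate 3, against 0.0536, 0.196 and 0.260 CPM in SRSF9-OE. Its log2 fold change of 7.66 ± 1.82 was 1.48 without the summed library. CALB1, the calcium-binding protein calbindin, went the other way, with 111 CPM in the summed library and 1401 CPM in replicate 3, against 10.2, 14.3 and 1.30 CPM in SRSF9-OE, and its log2 fold change of 6.46 ± 1.32 was 3.68 without replicate 3. The library that was high thus differed between these 2 genes. In the 9 other libraries IL1RL1 reached 74.4 CPM, above both SRSF6-OE libraries, while CALB1 did not exceed 22.7 CPM. WFDC2, a secreted protease inhibitor of epithelia, stood at 14.6 and 1.63 CPM in SRSF6-OE and at 0.357, 0.0785 and 0.118 CPM in SRSF9-OE, and its log2 fold change of 5.42 ± 1.04 was 3.09 without the summed library. CA8, a carbonic anhydrase relative without enzyme activity, stood at 3.85 and 16.1 CPM in SRSF6-OE and at 0.214, 0.334 and 0.189 CPM in SRSF9-OE. SUCLA2, a subunit of the citric acid cycle enzyme succinyl-CoA ligase, and its antisense RNA SUCLA2-AS1 were both called. SUCLA2 stood at 118 and 236 CPM in SRSF6-OE and at 52.6, 64.5 and 44.3 CPM in SRSF9-OE, and SUCLA2-AS1 at 2.93 and 26.6 CPM in SRSF6-OE and at 0.750, 1.14 and 0.402 CPM in SRSF9-OE. The sources used here do not say whether counting used strand, so the reads of such sense and antisense pairs, STARD13-AS included, may not be told apart.

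Genes furthest below SRSF9-OE differed more evenly between the libraries. ICAM5, an intercellular adhesion molecule first described in neurons, stood at 4.09 and 3.79 CPM in SRSF6-OE, against 39.1, 22.1 and 35.6 CPM in SRSF9-OE, a log2 fold change of -3.03 ± 0.31 (DESeq2 adjusted p = 1.94e-17, edgeR adjusted p = 0.0860). RAMP1, a partner of the receptor for calcitonin gene-related peptide, stood at 1.52 and 1.42 CPM in SRSF6-OE and at 8.66, 8.77 and 14.6 CPM in SRSF9-OE. SMPDL3B, a membrane-bound phosphodiesterase, stood at 2.40 and 1.14 CPM in SRSF6-OE and at 11.4, 11.9 and 11.4 CPM in SRSF9-OE. The groups lay well apart in all 3. BST2, the interferon-induced protein tetherin that holds budding viruses at the cell surface, stood at 5.26 and 3.02 CPM in SRSF6-OE and at 25.4, 19.9 and 32.4 CPM in SRSF9-OE, a log2 fold change of -2.64 ± 0.35. RAB25, a small GTPase of apical recycling in epithelia, stood at 0.914 and 2.18 CPM in SRSF6-OE and at 8.28, 6.34 and 6.60 CPM in SRSF9-OE. TNS1, a tensin that links integrins to actin, stood at 2.65 and 3.32 CPM in SRSF6-OE and at 14.8, 8.22 and 16.9 CPM in SRSF9-OE. CNTN3, CAPN6, LOXL1, NRSN2 and KRT79 were also among the 12 largest differences in this direction, at log2 fold changes of -2.36, -2.45, -2.26, -2.24 and -3.03. In the 9 other libraries BST2 ran between 0.417 and 46.2 CPM and CNTN3 between 0.0208 and 14.2 CPM, so their levels also varied widely among libraries of other labels.

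**Figure D2:**
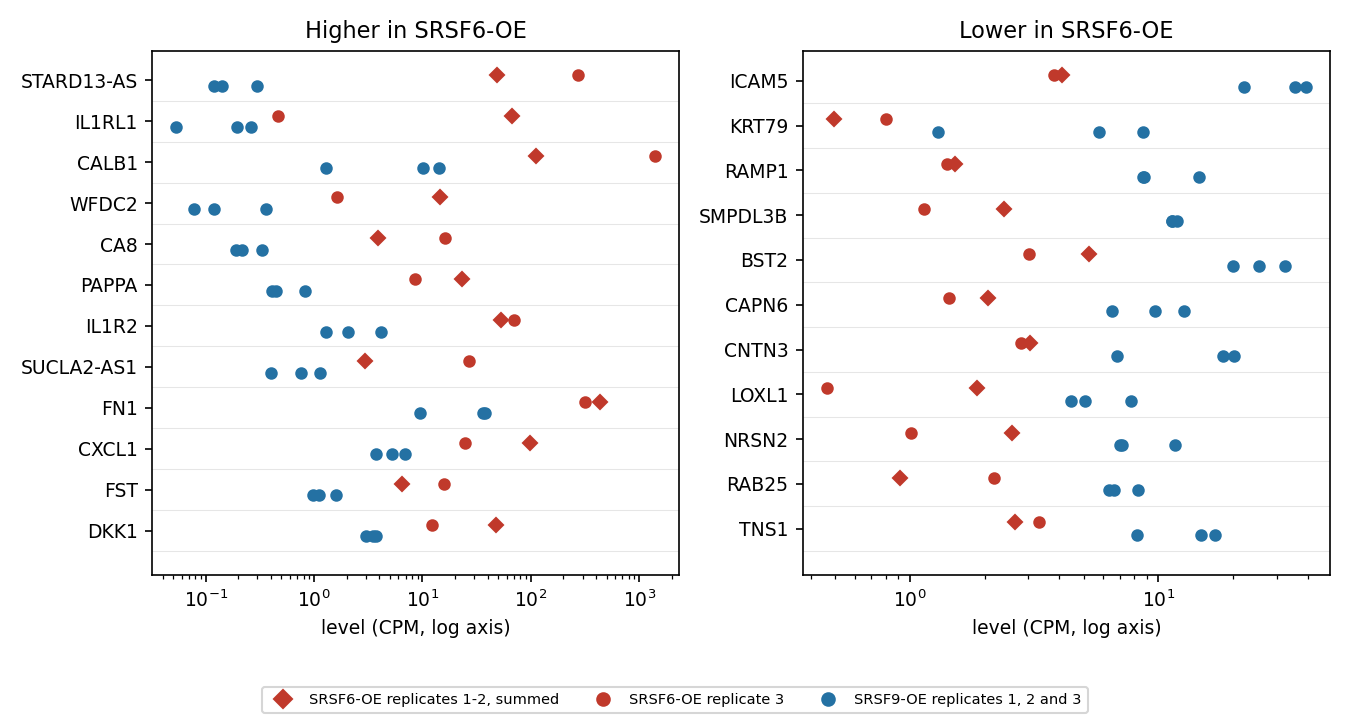
Levels in CPM (log axes) of the 12 genes furthest above SRSF9-OE (left) and 11 of the 12 furthest below (right, SRSF9 left out) among DESeq2 calls with a mean of at least 3 CPM and no clone-based name, which leaves out AC105460.1. Red diamonds are the summed SRSF6-OE library, red circles SRSF6-OE replicate 3 and blue circles the 3 SRSF9-OE libraries; no gene shown has overlapping groups, and IL1RL1 and CALB1 show the widest gaps between the SRSF6-OE libraries.

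Of genes of the NF-kB pathway and its chemokine targets, 5 were called higher in SRSF6-OE and 0 lower (1.14% and 0.912% of all genes tested). NF-kB is a family of transcription factors, held in the cytoplasm by inhibitors until a stimulus such as interleukin 1 or tumour necrosis factor frees them, and it binds kappaB sites in the promoters of chemokine and survival genes. Of the 29 listed genes 25 passed the filter, and 19 of these had a log2 fold change above 0, with a median of 0.68 beside 0.00 over all genes tested. The calls were IL32, BIRC3, CXCL1, CXCL3 and CXCL8, and 11 members lay above SRSF9-OE without overlap and 2 below (13.4% and 14.3% of all genes tested). The median was 0.41 with SRSF6-OE replicate 3 alone and 0.40 with the summed library alone. In edgeR on all 14 libraries with label set as a term it was 0.29.

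The kappaB motif was looked for by name, as a pattern of 10 letters on both strands, in the 250 bases before each RefSeq gene start. It was present in 13 of the 23 listed genes with a promoter entry (56.5%), in 7.81% of the 11037 genes tested that had an entry and in 5.21% of all windows of that length. Such a match is a description of the letters and no sign of binding. The list holds known NF-kB targets, so its higher share follows from its make-up and says nothing of the 2 groups. CXCL1, CXCL3, CXCL2, IL32 and BIRC3 are shown because they lay above SRSF9-OE in both SRSF6-OE libraries and hold a match, which stands in capitals (overlapping matches on the 2 strands run together). The stretches are 100 bases long, from RefSeq on GRCh38.p14, written 5′ to 3′ on the strand of the gene. They lie at chr4:73869264-73869363 on the plus strand for CXCL1, chr4:74038719-74038818 on the minus strand for CXCL3, chr4:74099225-74099324 on the minus strand for CXCL2, chr16:3065254-3065353 on the plus strand for IL32 and chr11:102317270-102317369 on the plus strand for BIRC3.
CXCL1: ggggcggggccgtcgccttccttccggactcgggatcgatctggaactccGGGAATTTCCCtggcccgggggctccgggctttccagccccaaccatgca
CXCL3: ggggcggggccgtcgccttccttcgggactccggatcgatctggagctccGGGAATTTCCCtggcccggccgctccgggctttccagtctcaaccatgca
CXCL2: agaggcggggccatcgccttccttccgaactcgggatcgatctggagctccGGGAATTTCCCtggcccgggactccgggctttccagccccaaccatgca
IL32: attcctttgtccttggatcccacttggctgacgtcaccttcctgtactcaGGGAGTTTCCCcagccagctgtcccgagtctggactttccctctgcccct
BIRC3: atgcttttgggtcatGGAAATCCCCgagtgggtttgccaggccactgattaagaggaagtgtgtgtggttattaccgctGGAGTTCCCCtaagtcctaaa
The 3 chemokine genes carry the same capitals in almost the same surroundings, while BIRC3 holds 2 separate matches.

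The neutrophil-attracting chemokines of that group ran together. CXCL1 stood at 98.1 and 24.6 CPM in SRSF6-OE and at 3.75, 5.20 and 6.89 CPM in SRSF9-OE, a log2 fold change of 3.54 ± 0.57 (DESeq2 adjusted p = 7.88e-08, edgeR adjusted p = 0.183). CXCL8, interleukin 8, stood at 26.4 and 6.07 CPM in SRSF6-OE and at 1.36, 2.65 and 4.05 CPM in SRSF9-OE. CXCL3 stood at 5.62 and 2.22 CPM in SRSF6-OE and at 0.678, 0.923 and 1.18 CPM in SRSF9-OE. In all 3 the summed SRSF6-OE library was the higher one, and without it the log2 fold changes of 3.54, 2.60 and 2.09 for CXCL1, CXCL8 and CXCL3 were 2.22, 1.18 and 1.26. CXCL2 had the same order, with 23.8 and 10.1 CPM in SRSF6-OE and 6.86, 7.52 and 9.11 CPM in SRSF9-OE, but was not called (DESeq2 adjusted p = 0.144). CXCL1, CXCL2 and CXCL3 are close paralogs, and reads that fit more than 1 of them may be lost or split. CXCL8 held no kappaB match within the window searched.

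Further members showed more even values. BIRC3, an inhibitor of apoptosis that also regulates NF-kB signalling, stood at 701 and 513 CPM in SRSF6-OE and at 239, 195 and 235 CPM in SRSF9-OE, a log2 fold change of 1.44 ± 0.21 (DESeq2 adjusted p = 8.08e-07). IL32, an intracellular and secreted cytokine, stood at 21.2 and 11.7 CPM in SRSF6-OE and at 3.20, 1.75 and 2.70 CPM in SRSF9-OE, a log2 fold change of 2.69 ± 0.37, and lay above the 0.315 to 5.93 CPM of the 9 other libraries in both SRSF6-OE libraries. The other called members did not stand out in this way. The 9 other libraries spanned 88.1 to 744 CPM of BIRC3 and 0.493 to 251 CPM of CXCL1. They spanned 0.118 to 104 CPM of CXCL8 and 0.512 to 14.4 CPM of CXCL3. Each of these ranges holds both SRSF6-OE libraries, and the Control libraries stood at 744 and 503 CPM of BIRC3. Of the pathway's own subunits and feedback genes, NFKB1, NFKB2, RELB and TNFAIP3 had log2 fold changes of 0.18, 0.44, 0.65 and 0.72. The list median was 0.68. RELB stood at 32.3 and 34.4 CPM in SRSF6-OE and at 19.98, 15.3 and 28.6 CPM in SRSF9-OE, and NFKB2 at 120 and 125 CPM in SRSF6-OE and at 90.6, 72.2 and 107 CPM in SRSF9-OE. TNFAIP3, the deubiquitinase that limits NF-kB signalling, stood at 198 and 176 CPM in SRSF6-OE and at 94.4, 88.6 and 158 CPM in SRSF9-OE. None of these 3 was called, though their groups did not overlap. CXCL14, a chemokine that is not a typical NF-kB target, lay the other way at 0.861 and 0.296 CPM in SRSF6-OE and 7.34, 1.81 and 1.32 CPM in SRSF9-OE, and was not called either (DESeq2 adjusted p = 0.0574).

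Extracellular matrix genes differed gene by gene. Of 27 interstitial matrix genes 21 passed the filter, 15 were higher in SRSF6-OE, 3 were called higher and 1 lower, and the median log2 fold change was 0.47 (2.05% of all genes tested were called). With SRSF6-OE replicate 3 alone the median was 0.29, and with the summed library alone 0.21. FN1, fibronectin, stood at 439 and 318 CPM in SRSF6-OE and at 9.59, 37.6 and 36.2 CPM in SRSF9-OE, a log2 fold change of 3.77 ± 0.57 (DESeq2 adjusted p = 2.64e-09, edgeR adjusted p = 0.161). COL12A1, a collagen that sits on the surface of collagen fibrils, stood at 135 and 109 CPM in SRSF6-OE and at 25.5, 14.9 and 7.03 CPM in SRSF9-OE. COL8A1, a short-chain collagen, stood at 24.96 and 32.2 CPM in SRSF6-OE and at 8.91, 12.7 and 4.02 CPM in SRSF9-OE. In these 3 the SRSF6-OE libraries were close together and well above SRSF9-OE. FN1 was not high in SRSF6-OE alone, since the 9 other libraries ran between 2.74 and 847 CPM. TNC, tenascin C, a matrix protein of wounds and growing tissue, stood at 31.5 and 251 CPM in SRSF6-OE and at 8.53, 20.3 and 18.3 CPM in SRSF9-OE, and was not called (DESeq2 adjusted p = 0.0920). Its log2 fold change of 3.17 was 0.996 without SRSF6-OE replicate 3. THBS2, an inhibitor of angiogenesis, was the member called lower, at 0.248 and 0.233 CPM in SRSF6-OE and 1.07, 0.785 and 1.04 CPM in SRSF9-OE.

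Basement membrane genes, by contrast, were split, with 11 of 21 higher and a median of 0.05 (-0.13 with the summed library alone). FRAS1, which anchors epithelium to the layer below, stood at 18.6 and 33.9 CPM in SRSF6-OE and at 8.03, 9.13 and 5.30 CPM in SRSF9-OE. COL4A2, a chain of the network-forming collagen of basement membranes, stood at 61.3 and 72.2 CPM in SRSF6-OE and at 28.6, 39.4 and 32.8 CPM in SRSF9-OE. FRAS1 and COL4A2 were the called members (2.05% of all genes tested were called). COL4A1, whose gene lies beside COL4A2 and whose product pairs with it, showed the same order at 32.9 and 37.5 CPM in SRSF6-OE and 14.6, 22.7 and 20.3 CPM in SRSF9-OE (DESeq2 adjusted p = 0.0653). Among matrix proteases 14 of 17 were higher with a median of 0.59, but that median was 0.72 with SRSF6-OE replicate 3 alone and -0.12 with the summed library alone. ADAM8, a metalloproteinase of leukocytes and invasive epithelium, was the called member at 26.5 and 61.3 CPM in SRSF6-OE and 8.93, 16.4 and 15.5 CPM in SRSF9-OE. ITGB8, the integrin subunit that activates latent TGF-beta, stood at 135 and 198 CPM in SRSF6-OE and at 85.3, 81.4 and 103 CPM in SRSF9-OE (DESeq2 adjusted p = 0.0492). Without SRSF6-OE replicate 3 the log2 fold change of ADAM8 was 0.96 in place of 1.69 and that of ITGB8 0.57 in place of 0.88.

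**Figure D3:**
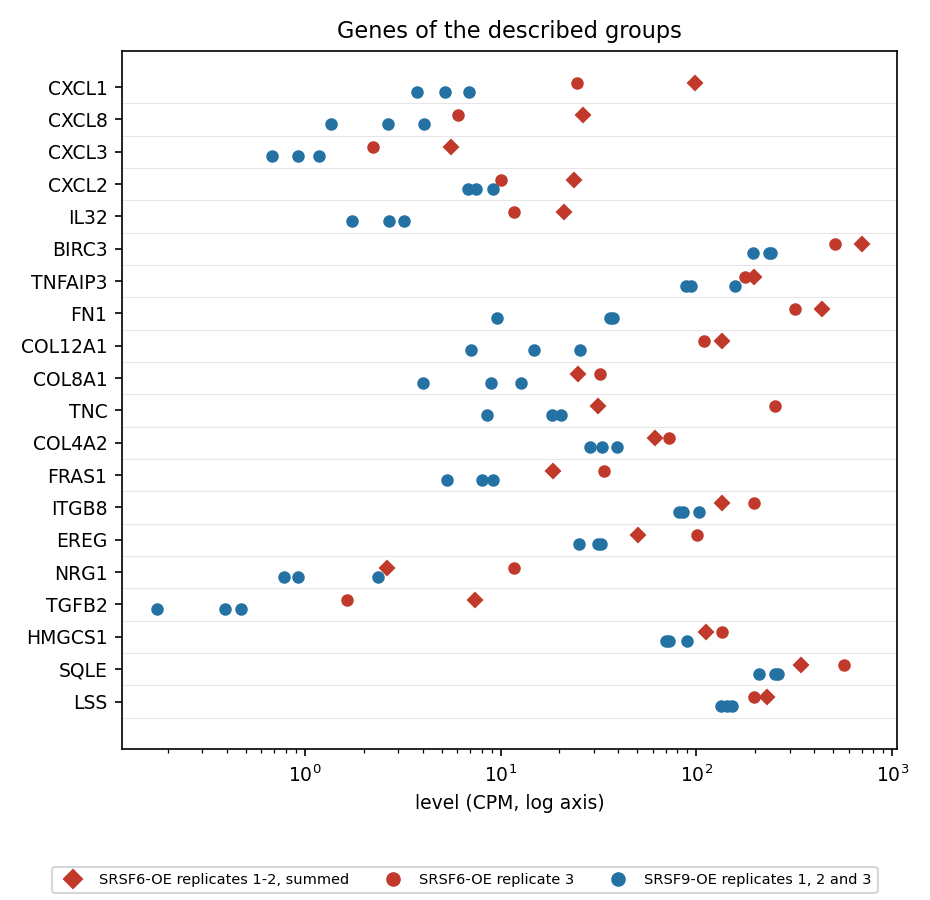
Levels in CPM (log axis) of 20 genes of the groups described, from NF-kB targets at the top through matrix and growth factor genes to sterol synthesis genes at the bottom. Red diamonds are the summed SRSF6-OE library, red circles SRSF6-OE replicate 3 and blue circles the 3 SRSF9-OE libraries; in each gene shown both red symbols lie to the right of all blue ones, with the widest gap for FN1.

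Among genes of the EGF receptor family, 2 ligands were called higher and no receptor was called. EREG, epiregulin, stood at 50.3 and 101 CPM in SRSF6-OE and at 25.2, 31.6 and 32.7 CPM in SRSF9-OE. NRG1, the neuregulin ligand of ERBB3 and ERBB4, stood at 2.64 and 11.8 CPM in SRSF6-OE and at 2.36, 0.785 and 0.923 CPM in SRSF9-OE. AREG, amphiregulin, stood at 8.82 and 6.87 CPM in SRSF6-OE and at 4.36, 5.06 and 5.42 CPM in SRSF9-OE. EREG and NRG1 were called and AREG was not, among 10 measured genes of which 7 were higher (median 0.21). Of all genes tested 1.14% were called higher and 0.912% lower. Without SRSF6-OE replicate 3 the log2 fold changes of EREG and NRG1 were 0.75 and 0.95, in place of 1.34 and 2.40. TGFB2, a TGF-beta ligand, stood at 7.40 and 1.65 CPM in SRSF6-OE and at 0.393, 0.177 and 0.473 CPM in SRSF9-OE, and was the only one called of 21 TGF-beta genes (13 higher, median 0.11, and 0.17 with replicate 3 or -0.09 with the summed library alone). CTGF, a matrix-associated protein and a textbook target of YAP, stood at 2.32 and 1.02 CPM in SRSF6-OE and at 0.339, 0.216 and 0.166 CPM in SRSF9-OE, and was the only one called of 14 YAP and TAZ targets (11 higher, median 0.44, and 0.71 with replicate 3 or 0.13 with the summed library alone). CDH4, a cadherin of retina and nervous system, stood at 11.2 and 42.8 CPM in SRSF6-OE and at 2.46, 7.30 and 5.51 CPM in SRSF9-OE. It was the only one called of 13 mesenchymal genes (5 higher, 8 lower, median -0.07). PKP1, a desmosomal plakophilin, stood at 15.8 and 24.98 CPM in SRSF6-OE and at 6.62, 3.10 and 1.28 CPM in SRSF9-OE. It was the only one called of 9 desmosome genes (7 higher, median 0.07). All 4 of these last genes were called, and without a single library TGFB2 (summed library, 2.25 in place of 3.71) and CDH4 (replicate 3, 1.13 in place of 2.40) changed most on the log2 scale.

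Genes of cholesterol synthesis and uptake, most of which encode enzymes that make sterols from acetyl-CoA under the control of the factor encoded by SREBF2, itself a member, had 16 of 21 members higher in SRSF6-OE and a median log2 fold change of 0.52. None was called by edgeR or DESeq2, 6 had an unadjusted p under 0.05 in edgeR, and 8 lay above SRSF9-OE without overlap and 1 below (10.2%, 13.4% and 14.3% of all genes tested). SQLE, squalene epoxidase, stood at 340 and 568 CPM in SRSF6-OE and at 209, 262 and 251 CPM in SRSF9-OE (log2 fold change 0.92 ± 0.26, DESeq2 adjusted p = 0.0782). HMGCS1, which makes HMG-CoA, stood at 112 and 136 CPM in SRSF6-OE and at 70.4, 89.9 and 72.2 CPM in SRSF9-OE. LSS, lanosterol synthase, stood at 229 and 197 CPM in SRSF6-OE and at 143, 133 and 151 CPM in SRSF9-OE. FDPS and DHCR7, of the farnesyl and the last sterol steps, had the same order of groups, at log2 fold changes of 0.64 ± 0.23 and 0.79 ± 0.32. Without SRSF6-OE replicate 3 the log2 fold changes of SQLE, FDPS and DHCR7 were 0.50, 0.26 and 0.31. The list median was 0.76 with replicate 3 alone and 0.22 with the summed library alone.

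No mitosis or DNA replication gene was called, though most had a log2 fold change above 0. All 30 mitosis genes measured had a log2 fold change above 0 (median 0.70), and 6 lay above SRSF9-OE without overlap, where 13.4% of all genes tested did. The median was 0.39 with SRSF6-OE replicate 3 alone and 0.92 with the summed library alone. Their mean log2 CPM was 5.99 and 5.50 in SRSF6-OE and 5.69, 5.21 and 3.94 in SRSF9-OE, so SRSF9-OE replicate 3 was lowest by a wide margin and SRSF9-OE replicate 1 lay above SRSF6-OE replicate 3. MKI67, the proliferation marker Ki-67, stood at 149 and 136 CPM in SRSF6-OE and at 120.6, 90.7 and 38.7 CPM in SRSF9-OE, and TOP2A, topoisomerase II alpha, at 236 and 133 CPM in SRSF6-OE and at 204, 131 and 37.9 CPM in SRSF9-OE. CCNB1, cyclin B1, which drives entry into mitosis, stood at 110 and 71.0 CPM in SRSF6-OE and at 90.0, 54.8 and 22.4 CPM in SRSF9-OE. Groups overlapped for TOP2A and CCNB1. DNA replication genes had 21 of 26 higher and a median of 0.45, which was 0.75 with the summed library alone and -0.06 with replicate 3 alone; 0 were called and 6 lay above without overlap, among them MCM7 and MCM4 of the replicative helicase. MCM7 stood at 208 and 159 CPM in SRSF6-OE and at 126, 111 and 119 CPM in SRSF9-OE.

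G1 regulators had 10 of 13 higher (median 0.28), where 2.05% of all genes tested were called in either direction. CDKN2D, the CDK inhibitor p19, stood at 2.95 and 7.15 CPM in SRSF6-OE and at 1.84, 1.92 and 1.44 CPM in SRSF9-OE and was the only one called (DESeq2 adjusted p = 0.0415). CDK6, a kinase that p19 inhibits, stood at 139 and 369 CPM in SRSF6-OE and at 89.3, 106 and 105 CPM in SRSF9-OE (DESeq2 adjusted p = 0.0556). Without SRSF6-OE replicate 3 the log2 fold change of CDKN2D was 0.76 in place of 1.53. Replication-dependent histone genes, whose mRNAs mostly lack a poly(A) tail, were lower in 7 of the 7 that passed of 12 listed, with a median of -0.32. Of these 0 were called and 3 lay below SRSF9-OE without overlap, where 14.3% of all genes tested did. HIST1H2AC stood at 27.1 and 21.0 CPM in SRSF6-OE and at 41.4, 42.4 and 30.7 CPM in SRSF9-OE. HIST1H2BK stood at 17.0 and 17.1 CPM in SRSF6-OE and at 19.98, 27.1 and 28.1 CPM in SRSF9-OE.

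No SR gene, SR protein kinase or hnRNP other than SRSF9 was called. Of 13 SR genes 10 were higher, with a median of 0.11 (-0.01 with replicate 3 alone). SRSF1, the founding member of the family, stood at 208 and 202 CPM in SRSF6-OE and at 190, 166 and 164 CPM in SRSF9-OE, and SRSF3, the smallest SR protein, at 229 and 219 CPM in SRSF6-OE and at 202, 196 and 181 CPM in SRSF9-OE. TRA2A, an SR-like splicing activator, stood at 74.7 and 68.3 CPM in SRSF6-OE and at 53.7, 45.3 and 48.8 CPM in SRSF9-OE. SRSF12, a low-level member, stood at 0.648 and 0.212 CPM in SRSF6-OE and at 1.29, 1.32 and 1.63 CPM in SRSF9-OE. Groups did not overlap in these 4 genes, and none was called. Of the 13 SR genes 3 lay above SRSF9-OE without overlap and 2, SRSF9 among them, below (13.4% and 14.3% of all genes tested). Of 22 hnRNPs and epithelial splicing regulators, a class of RNA-binding proteins that often oppose SR proteins at exons, 21 were higher with a median of 0.22, 0 called and 6 above SRSF9-OE without overlap. HNRNPA2B1 stood at 885 and 796 CPM in SRSF6-OE and at 600, 522 and 456 CPM in SRSF9-OE (log2 fold change 0.68 ± 0.20, DESeq2 adjusted p = 0.0653). HNRNPC was the member that was lower, at 391 and 415 CPM in SRSF6-OE and 429, 467 and 446 CPM in SRSF9-OE. The 7 SR protein kinases measured had 5 higher, 0 called and a median of 0.09.

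Of 34 interferon-stimulated genes, which cells switch on against viruses, 24 were lower (median -0.12), with 7 below SRSF9-OE without overlap and 1 above (14.3% and 13.4% of all genes tested), but the median was -0.93 with SRSF6-OE replicate 3 alone and 0.10 with the summed library alone. BST2 was the only member called. IFI27 stood at 0.630 and 0.677 CPM in SRSF6-OE and at 1.62, 1.001 and 1.37 CPM in SRSF9-OE, and OAS1, a sensor of double-stranded RNA, at 33.3 and 28.5 CPM in SRSF6-OE and at 36.9, 50.4 and 34.8 CPM in SRSF9-OE. Cornified envelope and late keratinocyte genes had 17 of 29 higher and a median of 0.45, while the summed library alone gave a median of -1.63. The 3 called members were all lower, a call given to 0.912% of all genes tested. KLK7, a protease of skin shedding, stood at 0.0532 and 0.3595 CPM in SRSF6-OE and at 2.45, 2.87 and 0.521 CPM in SRSF9-OE. KLK11, from the same kallikrein cluster, stood at 0.0798 and 0.106 CPM in SRSF6-OE and at 2.02, 0.864 and 0.166 CPM in SRSF9-OE, and the keratin KRT13 at 0.124 and 0.106 CPM in SRSF6-OE and at 0.536, 0.608 and 0.568 CPM in SRSF9-OE. These were low levels in all 5 libraries. Mitochondrially encoded genes were lower in 11 of 13, with a median of -0.18, 0 called and 2 below without overlap.

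**Figure D4:**
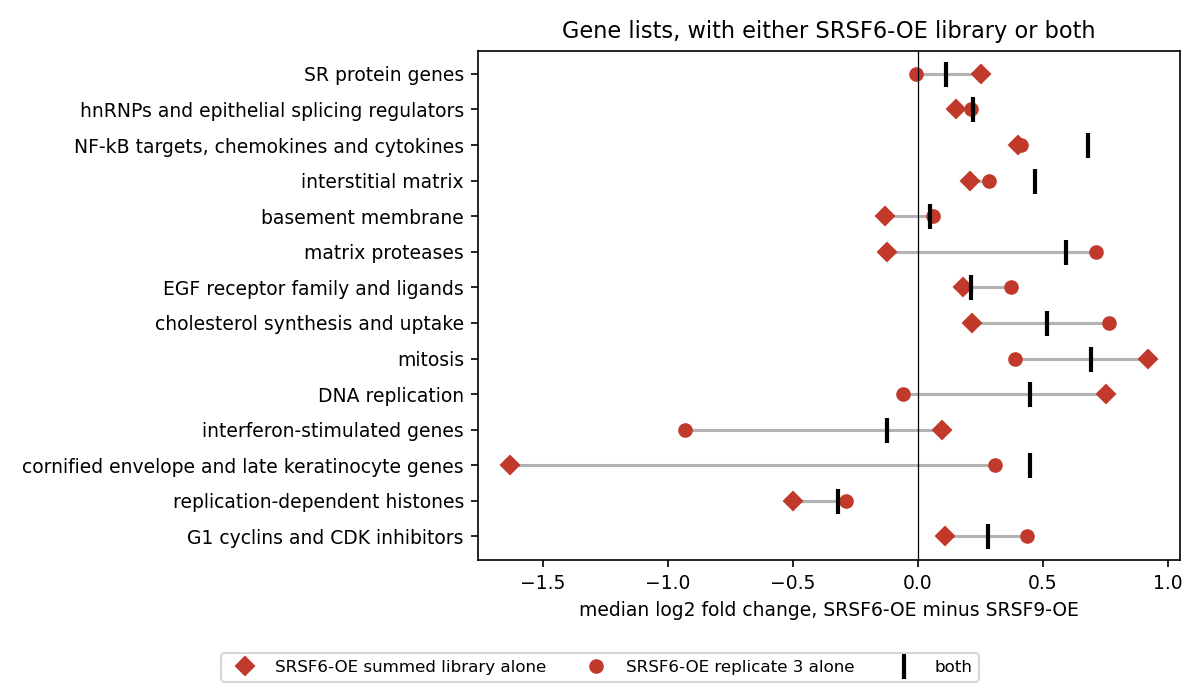
Median log2 fold change (SRSF6-OE minus SRSF9-OE) of 14 gene lists, with the summed SRSF6-OE library alone (diamonds), SRSF6-OE replicate 3 alone (circles) and both (black bars). The symbols lie near each other for hnRNP and NF-kB genes, and on opposite sides of 0 for interferon-stimulated, cornified envelope, matrix protease and DNA replication genes.

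Differences were spread unevenly over the genome, a pattern examined after the chromosomes of the called genes had been seen. Among 10642 protein-coding genes with a mean of at least 3 CPM, the median log2 fold change was 0.47 for chromosome 13, 0.39 for chromosome 7, 0.39 for chromosome 11, 0.35 for chromosome 8, 0.26 for chromosome 19 and 0.24 for chromosome 20. The medians of the other 17 chromosomes lay between -0.096 and 0.063. On these 6 chromosomes, those with a median above 0.2, lay 2703 genes (25.4%), of which 86.2% were higher in SRSF6-OE and 42.2% lay above SRSF9-OE without overlap, against 46.0% and 8.12% of genes elsewhere. They held 94 of the 154 such genes that DESeq2 called higher (61.0%), and 123 of 227 among genes of any type with a known chromosome (54.2%). The cut was made on these same fold changes, so the higher shares follow in part from it and are no separate support.

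Both SRSF6-OE libraries showed the same chromosomes. For each library, gene levels were set against the SRSF9-OE mean on a log2 scale with 1 CPM added, and the median was taken by chromosome. Chromosome 13 stood at 0.34 and 0.58 in SRSF6-OE and at -0.03, 0.07 and -0.03 in SRSF9-OE, with -0.16 to 0.13 in the 9 other libraries. Chromosome 7 stood at 0.22 and 0.49 in SRSF6-OE and at -0.05, 0.01 and 0.02 in SRSF9-OE, with -0.04 to 0.03 in the others. Chromosome 11 stood at 0.24 and 0.48 in SRSF6-OE and at -0.03, -0.03 and 0.05 in SRSF9-OE, and chromosome 8 at 0.22 and 0.46 in SRSF6-OE and at -0.04, 0.05 and -0.01 in SRSF9-OE. On these 4 chromosomes both SRSF6-OE libraries lay above every other library of the study, and replicate 3 was the higher one. Chromosomes 19 and 20 were less distinct, since the 9 other libraries reached 0.28 and 0.47 there. On the other 17 chromosomes the SRSF6-OE medians lay between -0.10 and 0.04 in the summed library and between -0.10 and 0.14 in replicate 3. The cause of the pattern was not tested, and the number of copies of each chromosome in these cells was not analysed here.

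Several genes named above lie on those chromosomes. STARD13-AS, SUCLA2, COL4A1 and COL4A2 are on chromosome 13, CALB1, CA8, SQLE and NRG1 on chromosome 8, BIRC3 and DHCR7 on chromosome 11, and CDK6, ITGB8, HNRNPA2B1, MCM7 and TRA2A on chromosome 7. Genes called lower lie there too, with ICAM5, BST2, KLK7 and KLK11 on chromosome 19 and NRSN2 on chromosome 20. SRSF6 itself is on chromosome 20, with a log2 fold change of 0.34 beside that chromosome's median of 0.24. A few called genes of high level, picked after their values were seen, are given as examples. Their log2 fold changes of 0.70 to 1.60 exceed the medians of their chromosomes (0.26 to 0.47). They therefore do not give the size of the shift in a typical gene. RB1, the retinoblastoma tumour suppressor gene on chromosome 13, stood at 119 and 153 CPM in SRSF6-OE and at 82.3, 81.2 and 69.8 CPM in SRSF9-OE, a log2 fold change of 0.80 ± 0.18. SDCBP, the adaptor protein syntenin on chromosome 8, stood at 491 and 440 CPM in SRSF6-OE and at 274, 298 and 267 CPM in SRSF9-OE. AKR1B1, aldose reductase on chromosome 7, stood at 316 and 867 CPM in SRSF6-OE and at 154, 223 and 207 CPM in SRSF9-OE, and its log2 fold change of 1.60 was 0.69 without replicate 3. These 3 differ in which SRSF6-OE library is higher. MPZL2, an adhesion protein of epithelia on chromosome 11, stood at 180 and 266 CPM in SRSF6-OE and at 85.8, 102 and 84.8 CPM in SRSF9-OE. LMNB2, lamin B2 on chromosome 19, stood at 149 and 147 CPM in SRSF6-OE and at 95.7, 88.5 and 89.2 CPM in SRSF9-OE. All 5 lay above SRSF9-OE in both SRSF6-OE libraries, by amounts larger than the spread within SRSF9-OE. In the 9 other libraries SDCBP reached 678 CPM, above both SRSF6-OE libraries, and AKR1B1 498 CPM, above the summed one. RB1, MPZL2 and LMNB2 did not exceed 107, 120 and 138 CPM there.

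With the members on those 6 chromosomes left out, medians of the gene lists moved to differing degrees. The 6 were picked for high medians in the same fit, so a fall in most lists follows in part from that choice. The NF-kB list kept a median of 0.72 over 21 members, with 4 of its 5 calls, and mitosis genes 0.69 over 27. The median of cholesterol genes was 0.39 over 13 members, that of interstitial matrix genes 0.19 over 19 with all 4 calls, and that of DNA replication genes 0.14 over 17. For hnRNPs it was 0.14 over 14, for SR genes 0.10 over 11 and for EGF receptor family genes 0.02 over 8. Over all genes tested the median was 0.27 on those chromosomes and -0.06 elsewhere.

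**Figure D5:**
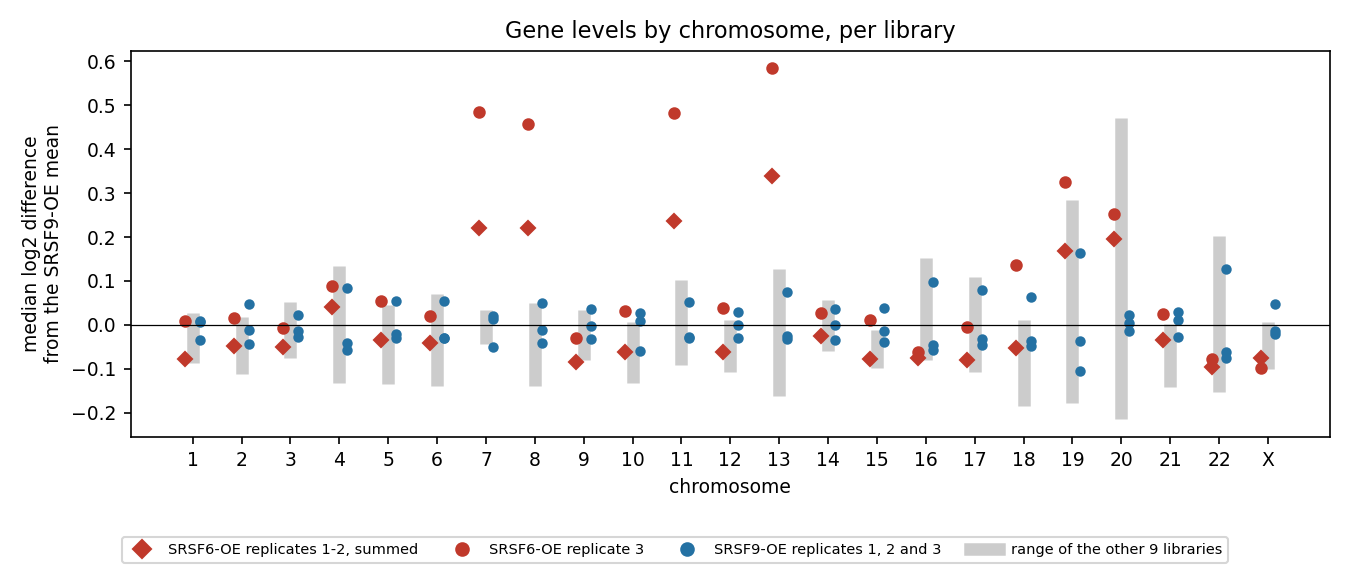
Median log2 difference from the SRSF9-OE mean (1 CPM added) by chromosome, for each library, over 10642 protein-coding genes. Red diamonds are the summed SRSF6-OE library, red circles SRSF6-OE replicate 3, blue circles the SRSF9-OE libraries and grey bars the range of the 9 other libraries; the red symbols stand above the grey bars on chromosomes 7, 8, 11 and 13 and inside or near them on most others.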

How the data were processed

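The deposited table holds raw counts per gene for 60252 gene IDs, whole numbers that the authors did not normalise. The submitters' processing notes name Trimmomatic 0.36, STAR 2.5.1b, Subread, featureCounts and GRCh37, without role or order; the sources used here do not say whether strand was used. Gene names, types and chromosomes came from GENCODE 29 on another build, by ID (55951 named, 4301 not, 0.156% to 0.181% of counts in the 5 libraries).

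Lanes of SRSF6-OE replicates 1 and 2 differed by a mean chi-square per gene of 7.81, against 65.1 to 274 for separate libraries, and were summed. edgeR 4.0.16 (R 4.3.3) fitted the 5 libraries with TMM scaling, filterByExpr (minimum count 10, 19960 genes kept), group as the only term and 3 residual degrees of freedom, and p-values were adjusted over all genes. DESeq2 1.42.0 and limma 3.58.1 were alternatives, as were other scalings, filters, all 14 libraries with label set as a term, unsummed lanes, replicate blocks and leaving out each library. DESeq2 gave no adjusted p to 387 genes. Scripts were tested on simulated data.

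The members, gene lists and tests were chosen with earlier results of these data known. Named genes were SRSF6, SRSF9, the 12 largest differences in each direction among calls with a mean of at least 3 CPM, no overlap between groups and no clone-based name (so not AC105460.1), and up to 4 called and the 2 most abundant members of each list; a selection is described. PCDHGA11 and SLCO1B3 came from the fit of all 14 libraries. Genes outside that rule, such as GATC, SRSF9P1, STARD13, SUCLA2, SRSF1, TRA2A, RELB, TNC, SQLE, MKI67 and RB1, were picked after their values were seen.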

Additional observations from a re-analysis of the deposited data

How the results depend on the processing

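The number of genes past the threshold, 0 in edgeR on the 5 libraries, depended on the fit. It was 410 in DESeq2, 1100 without a filter on low counts, 5 with all 14 libraries and label set as a term, 3 with all 14 libraries and no such term, 1 with the 12 libraries without Control and label set as a term, and 67 when the 6 samples entered as separate replicates. Leaving out each library gave 0 to 983 calls in edgeR and 184 to 2162 in DESeq2 (195, 184 and 188 without SRSF9-OE replicates 1, 2 and 3), the highest without the summed SRSF6-OE library, and 21 to 23 of the 24 largest named differences were called each time in DESeq2. Those 24 had been chosen as DESeq2 calls without overlap on these same libraries, so their being called again is no independent check. RLE size factors, library totals, a filter at 3 CPM and limma-voom gave 0 genes past the threshold. The log2 fold change of SRSF9 passed in DESeq2 (-2.60), without a filter (-2.60), with all 14 libraries and label set (-2.62) or no such term (-2.61), and with 6 samples (-2.66), and ran from -2.87 to -2.31 when each library was left out, passing without the summed SRSF6-OE library (-2.51). That of SRSF6 ran from 0.023 to 0.587 and never passed.

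Replicate numbers did not pair the samples: same-numbered samples correlated at 0.431, -0.242 and 0.197 in their deviations from group means, and numbers 1 and 2 of SRSF6-OE are lanes of a single library. With a replicate block edgeR called 0 genes, both on the 6 samples and on the 5 libraries. Over 91 named genes, 1529 recomputed values held 1321 that kept direction and call, 208 that passed only under the alternative and 0 that changed direction. Most of these genes had groups that did not overlap, so leaving out a library could hardly change their direction. The kept directions are therefore no independent check. The median of all genes shifted by -0.0765 to 0.0206 over the 17 alternatives, and medians of the 6 chromosomes stayed between 0.15 and 0.59. With 2 libraries against 3, the number of libraries limits precision, and depth limits genes of low level; why the fits differ in calls was not tested.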
